A study of Mus musculus with 46 samples.

Results

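H19 and 9 other genes of the imprinted growth network, namely Igf2, Dlk1, Meg3, Rian, Cdkn1c, Peg3, Mest, Grb10 and Plagl1, were followed in skeletal muscle of mice with and without Actn3, the gene for the fast-fibre Z-disc protein alpha-actinin-3. The genes were chosen by symbol, with earlier results of these counts in view, so their adjusted p-values describe where they stand among all genes tested and are not independent evidence. Of the 10, 9 were among the 17514 genes tested in gastrocnemius and the 16987 genes tested in spinalis, and Igf2 was not analysed here. RNA of single muscles from C57BL6 mice was sequenced as bulk samples, 45 libraries in all, in an experiment that removes androgen and in another that adds it. In the ORX experiment, WT and Actn3 KO males had their testes removed (orchidectomy, ORX) or were sham-operated at an age of 8 to 10 weeks, and gastrocnemius, a calf muscle, was collected 12 weeks after surgery, at 20 to 22 weeks. There were 6 WT-ORX and 5 KO-ORX mice, and 6 sham-operated mice of each genotype (WT-sham, KO-sham). In the DHT experiment, female WT and KO mice received an implant with 10 mg of the androgen dihydrotestosterone (DHT) or an empty one at 4 to 5 weeks, and spinalis, a muscle along the spine, was collected 6 weeks afterwards, at 10 to 11 weeks. DHT went to 6 mice of each genotype (WT-DHT, KO-DHT) and the empty implant to 5 of each (WT-empty, KO-empty). The mice of the ORX experiment were thus the older ones at collection. Muscle, sex, age and treatment all differ between the experiments and cannot be told apart, so each was tested separately and levels across them are only set side by side.

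Total counts per library lay between 26653932 and 55369921 in the ORX experiment and between 34812381 and 53899279 in the DHT experiment. Actn3 separated the genotypes as labelled. Its level was between 5977 and 10353 CPM (a gene's counts scaled to the size of its library) in the WT mice and between 34.3 and 83.2 CPM in the KO mice, over both experiments. All 10 genes of a skeletal muscle fibre list were present in both muscles, and Myh4, the fastest myosin heavy chain, was the most abundant of them in each group, with group medians from 41950 to 79804 CPM.

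Imprinted genes are expressed mainly from the copy inherited from one parent, and many of them set the pace of growth before and after birth. H19 is a maternally expressed long noncoding RNA that shares a control region with the paternally expressed growth factor gene Igf2, and it is known as abundant in fetal and regenerating muscle. On another chromosome the maternally expressed noncoding RNAs Meg3 and Rian lie in a cluster with the paternally expressed Dlk1, while Cdkn1c and Grb10 restrain growth, and Peg3, Mest and Plagl1 are paternally expressed genes that belong to the same network in the embryo. The counts do not separate the parental copies.

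H19 was a highly expressed RNA in both muscles. By mean CPM it ranked 398 of 17514 genes in gastrocnemius and 159 of 16987 in spinalis. Per kilobase of exon, which allows genes to be compared, its mean level was the highest of the 9 members in each of the 8 groups, from 72.5 CPM per kb in WT-sham to 371 CPM per kb in KO-empty. In the ORX experiment the mean H19 level was 178 ± 18 CPM in WT-sham (SD, n = 6), 216 ± 69.6 CPM in KO-sham (SD, n = 6), 239 ± 36 CPM in WT-ORX (SD, n = 6) and 264 ± 75.2 CPM in KO-ORX (SD, n = 5). Neighbours in that order differed by less than the larger SD of the pair. In the DHT experiment the mean was 208 ± 30.7 CPM in KO-DHT (SD, n = 6), 260 ± 33.9 CPM in WT-DHT (SD, n = 6), 566 ± 66 CPM in WT-empty (SD, n = 5) and 913 ± 281 CPM in KO-empty (SD, n = 5). There the DHT groups overlapped each other, as did the empty groups, and the step from WT-DHT to WT-empty was wider than the spread of either. In bulk samples such as these, fewer cells of a type and less RNA per cell cannot be told apart.

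**Figure D1:**
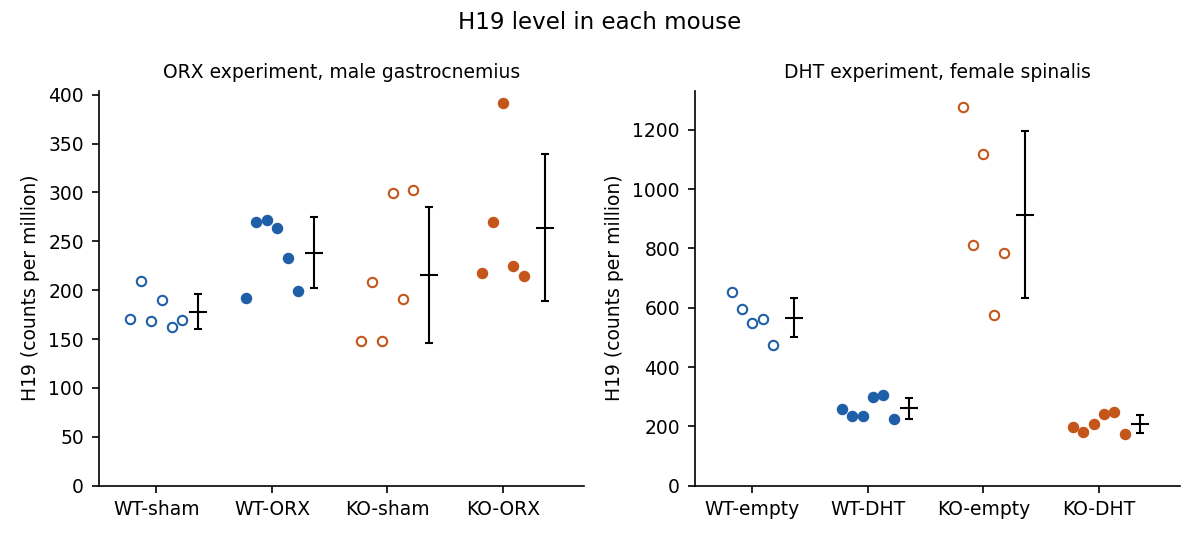
H19 level in CPM for each mouse (points) in the 4 groups of the ORX experiment (left) and of the DHT experiment (right), with the mean and SD of each group beside the points. Each mouse with DHT lies between 175 and 305 CPM, under each mouse with an empty implant, which lie between 473 and 1277 CPM.

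DHT lowered H19, Meg3, Rian and Grb10 in spinalis of both genotypes. Peg3 fell as well in WT. Rian, for example, dropped from a mean of 76.9 ± 6.95 CPM in WT-empty (SD, n = 5) to 28.9 ± 4.87 CPM in WT-DHT (SD, n = 6), and Grb10 from 103 ± 4.77 CPM (SD, n = 5) to 34.2 ± 5.94 CPM (SD, n = 6). A gene was counted as changed at an adjusted p of at most 0.01 over all genes tested, from an edgeR fit of the 4 groups of an experiment together. In WT, 5 of 9 members passed, all 5 lower with DHT, where 11.3% of all genes tested passed in either direction and 4.64% were lower. KO muscle had 4 of 9, again all 4 lower, where 4.62% of all genes passed and 1.75% were lower. By DESeq2 Peg3 and Plagl1 passed in KO as well, both lower, and so did Cdkn1c, which was higher. The median log2 change of the 9 members was -1 in WT and -1 in KO, beside -0.0063 and -0.011 over all genes. The comparisons within an experiment share groups, so their values stand side by side here and are not separate evidence.

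Under the empty implant, H19 stood at 653, 595, 548, 561 and 473 CPM in WT-empty mice 14KR, 4KR, 7KR, 35KR and 49KR. In WT-DHT the lowest, median and highest of the 6 mice were 226, 248 and 305 CPM. Each WT mouse with DHT lay below each WT mouse without it, with a clear gap. KO-empty mice 17KR, 33KR, 64KR, 61KR and 62KR had 1277, 810, 1119, 575 and 784 CPM of H19, and the KO-DHT mice 175, 202 and 249 CPM as lowest, median and highest. The KO-empty mice were thus widely spread, with 17KR and 64KR highest and 61KR within the range of WT-empty, while the KO-DHT mice lay close together and under all of them. H19 fell by 1.12 ± 0.15 on the log2 scale in WT (SE, adjusted p = 4e-06, lower in 6 of 6 DHT mice than in any WT-empty mouse). In KO it fell by 2.13 ± 0.15 (SE, adjusted p = 6e-10, lower in 6 of 6).

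Meg3 and Rian, the maternally expressed noncoding RNAs of the Dlk1 cluster, went down with DHT side by side. Meg3 was at 21.7, 19.9, 23.2, 20.6 and 16.2 CPM in the 5 WT-empty mice, in the order 14KR, 4KR, 7KR, 35KR and 49KR, and at 9.48, 10.5 and 11 CPM as lowest, median and highest in WT-DHT. In KO-empty mice 17KR, 33KR, 64KR, 61KR and 62KR Meg3 had 29.1, 19.5, 26.4, 19.4 and 15.8 CPM, and in KO-DHT it ranged from 8.29 over a median of 11 to 12.5 CPM. No Meg3 value with DHT reached the lowest value without it in the same genotype. Meg3 fell by 0.97 ± 0.13 on the log2 scale in WT (SE, adjusted p = 4.2e-06, 6 of 6 mice lower) and fell by 1.02 ± 0.13 in KO (SE, adjusted p = 7.6e-06, 6 of 6 lower). For Rian, a host of small nucleolar RNAs and miRNAs, the WT-empty mice had 82.2, 72, 84.6, 77.7 and 67.8 CPM in the same order, and WT-DHT ran from 23.7 over 27.9 to 35.1 CPM. KO-empty had 94, 60.1, 86.6, 56.3 and 50.7 CPM of Rian and KO-DHT 26, 29.9 and 43.3 CPM as lowest, median and highest. In KO-empty the mice high in H19, 17KR and 64KR, were also the highest in Meg3 and Rian, and the DHT mice of each genotype stood below their controls without overlap. Rian fell by 1.41 ± 0.15 on the log2 scale in WT (SE, adjusted p = 2.1e-07, 6 of 6 lower) and fell by 1.10 ± 0.15 in KO (SE, adjusted p = 2.9e-05, 6 of 6 lower). Dlk1, a Notch-related membrane protein that restrains differentiation, was scarce in spinalis, with 3 to 46 counts per library. Its log2 difference with DHT was -0.89 ± 0.42 in WT (SE, adjusted p = 0.15, 2 of 6 mice under all controls) and -0.77 ± 0.40 in KO (SE, adjusted p = 0.23, 1 of 6 under all controls), short of the threshold.

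Grb10, an adaptor that binds and restrains the insulin and insulin-like growth factor receptors, lay close together in the WT-empty mice. WT-empty mice 14KR, 4KR, 7KR, 35KR and 49KR had 98.9, 98.9, 101, 108 and 108 CPM of Grb10, and WT-DHT had 26.2, 36.8 and 40.9 CPM as lowest, median and highest. KO-empty mice 17KR, 33KR, 64KR, 61KR and 62KR had 96.8, 98.1, 104, 75.5 and 90 CPM, and KO-DHT 40.1, 43.7 and 54.8 CPM. The groups with and without DHT did not overlap in either genotype, and the KO-DHT mice sat higher than most WT-DHT mice. Grb10 fell by 1.59 ± 0.10 on the log2 scale in WT (SE, adjusted p = 3.6e-11, 6 of 6 lower) and fell by 1.06 ± 0.10 in KO (SE, adjusted p = 1.7e-07, 6 of 6 lower). Peg3, a paternally expressed zinc finger protein, had 58.3, 33.5, 29.8, 52.1 and 40.7 CPM in the WT-empty mice in the order given and 16.5, 19.6 and 27.4 CPM as lowest, median and highest in WT-DHT. In KO-empty Peg3 was at 56.4, 36.4, 44.4, 47.6 and 31.8 CPM, and in KO-DHT at 23.4, 28 and 31.2 CPM. Each DHT mouse was lower in Peg3 than each control of its genotype, by a small margin in KO. Peg3 fell by 1.04 ± 0.17 on the log2 scale in WT (SE, adjusted p = 6.9e-05, 6 of 6 lower), while in KO the log2 difference was -0.64 ± 0.17 (SE, adjusted p = 0.015, 6 of 6 lower), just short of the threshold. That Peg3 value passed by DESeq2 (adjusted p = 0.0025) and with only both KO groups fitted (adjusted p = 0.007), in a range from 0.0025 to 0.028 over the other settings, and without KO-empty 62KR (adjusted p = 0.0068).

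Cdkn1c, an inhibitor of cyclin-dependent kinases that holds cells out of the cycle, had positive values with DHT, as did Mest. It was at 10.5, 11.2, 13.8, 13.2 and 15.6 CPM in WT-empty and at 16.7, 18.9 and 20.8 CPM as lowest, median and highest in WT-DHT, so that each DHT mouse was above each control. In KO-empty mice 17KR, 33KR, 64KR, 61KR and 62KR Cdkn1c had 23.1, 21.2, 41, 16 and 26 CPM, and in KO-DHT 33.7, 36.7 and 39.4 CPM, where 64KR alone of the controls reached the range of the DHT mice. The log2 difference with DHT was 0.55 ± 0.15 in WT (SE, adjusted p = 0.013, 6 of 6 higher) and 0.53 ± 0.15 in KO (SE, adjusted p = 0.024), short of the threshold in both. Cdkn1c passed in WT by DESeq2 (adjusted p = 0.0029) and with only both WT groups fitted (adjusted p = 0.0015), in a range from 0.0015 to 0.036 over the other settings, and without WT-empty 49KR, KO-empty 64KR or KO-empty 61KR (adjusted p between 0.00066 and 0.0092). In KO it passed by DESeq2 (adjusted p = 0.0064) and limma-voom (adjusted p = 0.0079), in a range from 0.0064 to 0.078, and without KO-empty 64KR (adjusted p = 0.00011). Plagl1, a zinc finger transcription factor that acts on several other imprinted genes, had log2 differences of -1.07 ± 0.29 in WT (SE, adjusted p = 0.012, 4 of 6 mice under all controls) and -1.06 ± 0.29 in KO (SE, adjusted p = 0.02, 5 of 6 under all controls). By DESeq2 Plagl1 passed in WT (adjusted p = 0.0022, in a range from 0.0022 to 0.018 over the other settings) and in KO (adjusted p = 0.0041, in a range from 0.0041 to 0.027). By edgeR it passed in WT when WT-empty 14KR, WT-empty 4KR, WT-DHT 5KR, KO-empty 17KR, KO-DHT 25KR or KO-DHT 40KR was left out (adjusted p between 0.0041 and 0.0098), and in KO without KO-DHT 40KR (adjusted p = 0.009). Mest, a paternally expressed hydrolase-like protein, lay between 2.98 and 4.93 CPM in the 4 spinalis groups, with log2 differences of 0.05 and 0.07.

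Marker genes of other cell states moved with DHT as well. Of 8 genes of immature or regenerating fibres, 6 were measured in spinalis and 2 fell in each genotype. These were the cell adhesion gene Ncam1 (-0.84 ± 0.12 in WT and -1.07 ± 0.12 in KO, log2, SE), the myogenic factor Myog in WT (-1.06 ± 0.24) and the perinatal myosin Myh8 in KO (-1.38 ± 0.29). The Myh8 call was lost without KO-empty 17KR or 64KR (adjusted p between 0.012 and 0.016). The summed level of the list was 42.5 to 51.5 CPM in WT-empty, 23.6 to 34.3 CPM in WT-DHT, 42.8 to 66.2 CPM in KO-empty and 26.5 to 44.3 CPM in KO-DHT. By mean over all spinalis libraries Myog was its most abundant gene (11.6 CPM), and the fusion gene Mymk was near 0 (mean 0.359 CPM). In WT-DHT the median of Myog was 6.11 CPM, under the lowest spinalis value of the acetylcholine receptor gene Chrna1 (7.1 CPM). For 7 slow fibre genes, of which the slow myosin Myh7 was the most abundant in spinalis, the summed level was 400 to 1990 CPM in WT-empty, 224 to 972 CPM in WT-DHT, 854 to 2172 CPM in KO-empty and 290 to 1131 CPM in KO-DHT, with 6 of 7 genes at an unadjusted p under 0.05 in WT and 7 of 7 in KO. By edgeR 0 of the 7 passed the threshold in either genotype, by DESeq2 0 in WT and 1 in KO, and by limma-voom 0 and 2. Of 10 muscle fibre genes 1 passed with DHT in each genotype, in opposite directions. Atp2a1 fell in WT, at -0.37 ± 0.095, and Tnni2 rose in KO, by 0.36 ± 0.079 (log2, SE). At an unadjusted p under 0.05 there were 2 of the 10 in WT and 5 in KO.

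Some vessel, fat and fibroblast markers in spinalis passed with DHT, where 11.3% of all genes passed in WT and 4.62% in KO. Of 6 endothelial genes, 2 rose in WT, Tie1 by 0.45 ± 0.087 and Pecam1 by 0.33 ± 0.072, and 1 in KO, Tie1 by 0.40 ± 0.087 (log2, SE), the last lost without KO-empty 33KR or 61KR or KO-DHT 16KR or 65KR (adjusted p between 0.011 and 0.016). Of 6 pericyte genes Rgs5, the most abundant, rose by 0.45 ± 0.072 in WT and 0.34 ± 0.072 in KO, the latter lost without KO-empty 61KR or KO-DHT 6KR (adjusted p between 0.01 and 0.013). Of 7 adipocyte genes Cfd, the most abundant, fell in WT by 1.20 ± 0.32, a call lost without any 1 of 12 libraries (adjusted p between 0.011 and 0.028). In KO 0 of 7 passed by edgeR, 0 by DESeq2 and 0 by limma-voom, with 3 at an unadjusted p under 0.05. Of 8 fibroblast genes, Lum fell in KO by 0.98 ± 0.14 and Pdgfra in WT by 0.44 ± 0.084, while Dcn rose by 0.54 ± 0.11 in WT and 0.51 ± 0.11 in KO, the last lost without any 1 of 6 libraries (adjusted p between 0.013 and 0.017). With library-size scaling Pecam1 in WT (adjusted p = 0.035, in a range from 0.00026 to 0.035 over the other settings), Dcn in WT (adjusted p = 0.015, range from 3.9e-05 to 0.015) and in KO (adjusted p = 0.032, range from 0.0003 to 0.032) and Tie1 in KO missed the threshold. Fits of only both groups lost Tie1 and Rgs5 in KO and Cfd in WT. The median summed level without and with DHT was 169 and 223 CPM in WT and 196 and 231 CPM in KO for the endothelial list, and 433 and 583 CPM in WT and 440 and 528 CPM in KO for the pericyte list. It was 795 and 469 CPM in WT and 966 and 569 CPM in KO for the adipocyte list, and 1667 and 1997 CPM in WT and 1722 and 1873 CPM in KO for the fibroblast list. The part of these markers in the changes of H19, Meg3, Rian and Grb10 was not tested.

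Removal of the testes was followed by higher Dlk1, Meg3, Peg3 and Grb10 in gastrocnemius of both genotypes. Rian and Plagl1 rose too in KO. Peg3, for example, rose from a mean of 24 ± 2.08 CPM in WT-sham (SD, n = 6) to 41.2 ± 2.84 CPM in WT-ORX (SD, n = 6), and Grb10 from 46.4 ± 5.91 CPM (SD, n = 6) to 77.1 ± 8.95 CPM (SD, n = 6). In WT, 4 of 9 members passed, all 4 higher after ORX, where 5.45% of all genes tested passed in either direction and 2.04% were higher. In KO, 6 of 9 passed, all 6 higher, where 5.57% of all genes passed and 1.99% were higher. Both counts include Dlk1. A gene was tested if it reached 0.5 CPM in 2 or more libraries, and in gastrocnemius Dlk1 did so only in ORX mice. Its calls with ORX are thus not independent of the filter. With library-size scaling 7 of 9 members passed in KO, and 707 of the 17514 genes were higher in place of 348. The median log2 change of the 9 members was 0.55 in WT and 0.69 in KO, beside 0.013 and 0.014 over all genes.

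Dlk1 was near the limit of detection in gastrocnemius, with 4 to 16 counts per sham library, each under the 0.5 CPM of the filter. Its lowest, median and highest levels were 0.0881, 0.178 and 0.359 CPM in WT-sham and 0.468, 0.809 and 1.11 CPM in WT-ORX. They were 0.119, 0.25 and 0.414 CPM in KO-sham, and KO-ORX mice 1 to 5 had 0.685, 0.573, 1.62, 0.786 and 0.791 CPM. Each ORX mouse was above each sham mouse of its genotype, and KO-ORX mouse 3, which was also the highest of its group in H19, was the highest in Dlk1. Dlk1 rose by 2 ± 0.33 on the log2 scale in WT (SE, adjusted p = 0.00015, 6 of 6 mice higher) and by 1.80 ± 0.35 in KO (SE, adjusted p = 0.0012, 5 of 5 higher).

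Meg3 took 7.17, 7.91 and 9.09 CPM as lowest, median and highest in WT-sham and 10.8, 11.8 and 12.7 CPM in WT-ORX. In KO-sham these were 7.27, 8.09 and 12.3 CPM, and KO-ORX mice 1 to 5 had 16.5, 16.4, 15.6, 15.4 and 15.2 CPM. The KO-ORX mice were close together and above all mice of the other gastrocnemius groups. Meg3 rose by 0.55 ± 0.095 on the log2 scale in WT (SE, adjusted p = 0.00023, 6 of 6 higher) and by 0.84 ± 0.10 in KO (SE, adjusted p = 2.4e-06, 5 of 5 higher). Rian was at 19.4, 20.7 and 22.3 CPM in WT-sham, and at 19.4, 24.2 and 29.5 CPM in WT-ORX, as lowest, median and highest. KO-sham had 18.3, 24.2 and 28.8 CPM of Rian, and KO-ORX mice 1 to 5 had 38.5, 37, 36.5, 35.1 and 28.8 CPM. Of the KO-ORX mice, 4 stood well above the sham mice and mouse 5 just at their upper edge. Rian rose by 0.55 ± 0.10 on the log2 scale in KO (SE, adjusted p = 0.00069, 5 of 5 higher), and in WT the log2 difference was 0.24 ± 0.097 (SE, adjusted p = 0.12, 4 of 6 above all sham mice).

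Grb10 ran from 35.7 over a median of 47.9 to 51.6 CPM in WT-sham and from 66.2 over 77.8 to 86.8 CPM in WT-ORX. In KO-sham it ran from 40.1 over 46.8 to 59.8 CPM, and KO-ORX mice 1 to 5 had 80.7, 78.4, 90.2, 65.7 and 72.1 CPM. The Grb10 levels of sham and ORX mice did not overlap, and those of the genotypes lay on top of each other. Grb10 rose by 0.73 ± 0.097 on the log2 scale in WT (SE, adjusted p = 5.6e-06, 6 of 6 higher) and by 0.69 ± 0.10 in KO (SE, adjusted p = 4.6e-05, 5 of 5 higher). Peg3 was at 20.4, 24.2 and 26.8 CPM in WT-sham and 37.1, 41.2 and 44.3 CPM in WT-ORX, as lowest, median and highest. KO-sham had 25.2, 30.6 and 41.8 CPM, and KO-ORX mice 1 to 5 had 49.6, 52.6, 49, 51.4 and 56.5 CPM. Peg3 thus separated sham from ORX mice in both genotypes, with 1 KO-sham mouse at the level of WT-ORX. Peg3 rose by 0.78 ± 0.084 on the log2 scale in WT (SE, adjusted p = 2.4e-07, 6 of 6 higher) and by 0.73 ± 0.088 in KO (SE, adjusted p = 2.4e-06, 5 of 5 higher).

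Plagl1 had 0.719, 1.08 and 1.2 CPM in WT-sham, 1.04, 1.61 and 1.84 CPM in WT-ORX, and 0.413, 1.05 and 1.13 CPM in KO-sham, as lowest, median and highest, while KO-ORX mice 1 to 5 had 1.86, 1.43, 1.71, 2.4 and 1.97 CPM. In KO all ORX mice were above all sham mice, with mouse 4 highest. KO-sham mouse 2 stood apart below its group, at -1.12 log2 CPM, while the other KO-sham mice lay between -0.19 and 0.24. Plagl1 rose by 1.01 ± 0.21 on the log2 scale in KO (SE, adjusted p = 0.002, 5 of 5 higher). That call was lost without KO-ORX mouse 4, where the log2 change was 0.903 and the adjusted p was 0.011. It was also lost when only both KO groups were fitted (adjusted p = 0.014, in a range from 8.7e-05 to 0.014 over the other settings). In WT the log2 difference of Plagl1 was 0.57 ± 0.19 (SE, adjusted p = 0.06, 5 of 6 above all sham mice). H19 had a log2 difference with ORX of 0.42 ± 0.16 in WT (SE, adjusted p = 0.11, 4 of 6 above all sham mice) and 0.29 ± 0.17 in KO (SE, adjusted p = 0.32, 1 of 5 above all sham mice). Its lowest, median and highest levels were 162, 170 and 209 CPM in WT-sham, 192, 249 and 272 CPM in WT-ORX, and 148, 200 and 302 CPM in KO-sham, and KO-ORX mice 1 to 5 had 218, 270, 392, 225 and 214 CPM. The H19 levels of sham and ORX mice overlapped in both genotypes, and KO-ORX mouse 3 was the highest of its group. Fitted on both WT groups alone, H19 passed in WT (adjusted p = 0.0061, in a range from 0.0061 to 0.16 over the other settings). Cdkn1c differed by 0.15 ± 0.087 in WT (SE, adjusted p = 0.35) and 0.33 ± 0.091 in KO (SE, adjusted p = 0.02), and Mest by -0.13 and -0.01, all log2 and short of the threshold. With library-size scaling Cdkn1c passed in KO (adjusted p = 0.0034, in a range from 0.0034 to 0.054 over the other settings).

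Among markers of other cell states in gastrocnemius, Myog rose with ORX by 0.80 ± 0.14 in WT and 0.71 ± 0.15 in KO (log2, SE), 1 of 5 measured immature-fibre genes in each genotype. The KO call was lost without KO-ORX mouse 2 (adjusted p = 0.01, just over the threshold). The summed level of that list was 22.2 to 29.3 CPM in WT-sham, 25.2 to 32.4 CPM in WT-ORX, 19.4 to 24.8 CPM in KO-sham and 24.8 to 35.7 CPM in KO-ORX. The acetylcholine receptor gene Chrna1 was the most abundant, and Mymk, Mymx and Chrng were not among the genes tested. Of 5 tendon genes, 2 rose with ORX in KO, Kera by 1.21 ± 0.23 and Fmod by 1.23 ± 0.26 (log2, SE), with 5 of 5 at an unadjusted p under 0.05. The Fmod call was lost without KO-ORX 1 (adjusted p = 0.014). In WT 0 of 5 tendon genes passed by edgeR, 0 by DESeq2 and 0 by limma-voom, with 0 at an unadjusted p under 0.05. Their summed level was 314 to 780 CPM in WT-sham, 333 to 758 CPM in WT-ORX, 210 to 521 CPM in KO-sham and 349 to 877 CPM in KO-ORX, with Thbs4 the most abundant. Of 8 fibroblast genes Lum rose with ORX, by 0.59 ± 0.089 in WT and 0.57 ± 0.093 in KO (log2, SE), and Pdgfra fell in WT by 0.23 ± 0.058, a call lost without any 1 of 17 libraries (adjusted p between 0.01 and 0.033). Their summed level was 1882 to 2720 CPM in WT-sham, 1759 to 2239 CPM in WT-ORX, 1652 to 2180 CPM in KO-sham and 1620 to 3562 CPM in KO-ORX, with Dcn the most abundant.

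Of 10 muscle fibre genes, 3 passed with ORX in each genotype, beside 5.45% of all genes in WT and 5.57% in KO. In WT Mylpf rose by 0.44 ± 0.071 and Pvalb by 0.29 ± 0.064, and Myh1 fell by 0.61 ± 0.14 (log2, SE). In KO Tnni2 fell by 0.26 ± 0.049, Myh1 by 0.61 ± 0.15 and Tnnt3 by 0.20 ± 0.049. The Myh1 calls were lost without any 1 of 5 libraries in WT (adjusted p between 0.01 and 0.02) and of 6 in KO (adjusted p between 0.011 and 0.031), and the Tnnt3 call without any 1 of 16 (adjusted p between 0.01 and 0.029). With library-size scaling all 3 KO calls were lost, Tnni2 at an adjusted p = 0.023 (range from 5.9e-07 to 0.023 over the other settings). The summed level of the list was 119423 to 146876 CPM in WT-sham, 116896 to 155156 CPM in WT-ORX, 113494 to 145823 CPM in KO-sham and 111566 to 121980 CPM in KO-ORX. Of 6 macrophage genes Csf1r fell in WT by 0.31 ± 0.070, lost without any 1 of 6 libraries (adjusted p between 0.011 and 0.013) and with library-size scaling, and of 6 pericyte genes Notch3 rose in KO by 0.46 ± 0.12, lost without any 1 of 14 (adjusted p between 0.011 and 0.043), by limma-voom and with only both groups fitted. The summed macrophage level was 115 to 140 CPM in WT-sham and 115 to 136 CPM in WT-ORX, and the pericyte level 652 to 764 CPM in KO-sham and 643 to 736 CPM in KO-ORX. The part of all these markers in the changes of Dlk1, Meg3, Peg3 and Grb10 was not tested.

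**Figure D2:**
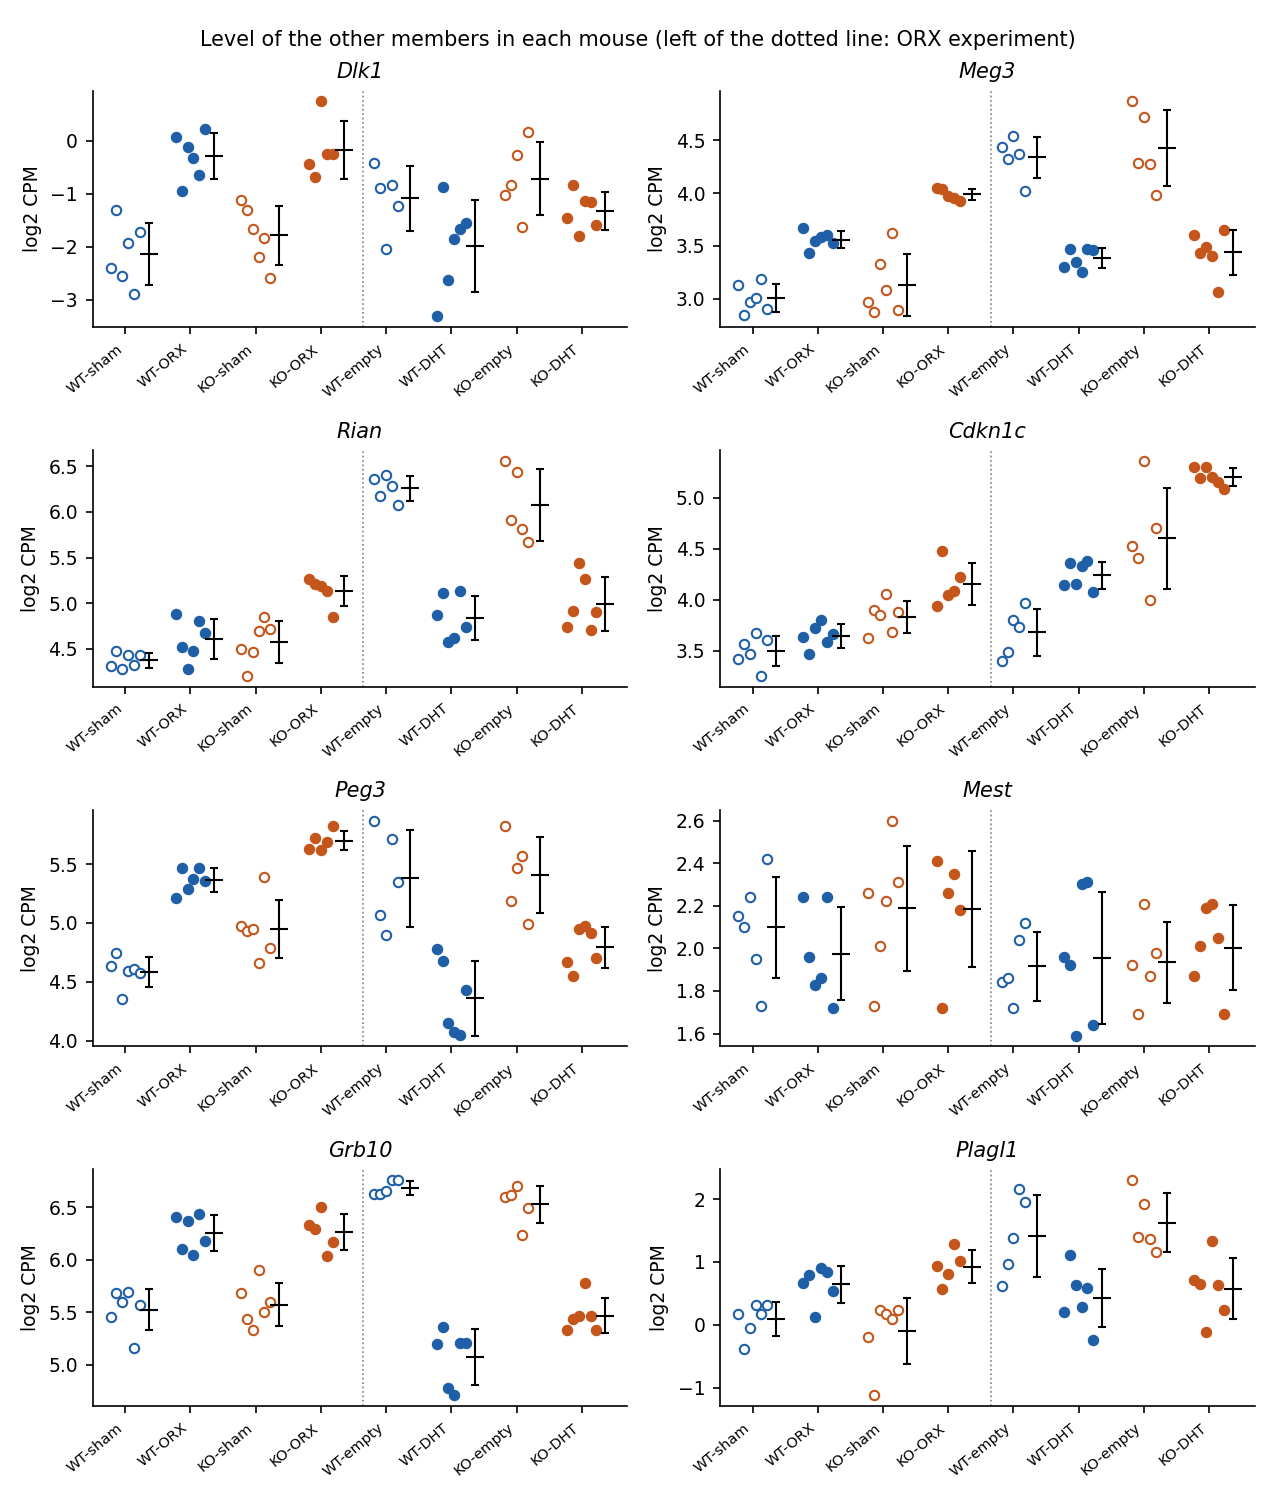
Level of the 8 members other than H19 in each mouse (points) as log2 CPM, with the mean and SD of each group beside the points, for the ORX experiment (left of the dotted line) and the DHT experiment (right of it). Meg3, Peg3 and Grb10 are higher in each ORX mouse than in each sham mouse of its genotype and lower in each DHT mouse than in each mouse of that genotype with an empty implant.

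Whether loss of Actn3 alters the response to androgen is the question of the study, and the interaction of treatment and genotype addresses it. H19 and Grb10 responded to DHT to a different degree in the genotypes, in opposite directions. H19 fell further in KO, from a KO-empty mean of 913 CPM, and Grb10 fell further in WT. The difference between the log2 changes was -1.01 ± 0.21 for H19 (SE, adjusted p = 0.0058) and 0.53 ± 0.15 for Grb10 (SE, adjusted p = 0.047). Among KO-empty mice 61KR had the highest summed level of a list of cyclin-dependent kinases, their inhibitors and cell cycle genes, at 212 CPM, of macrophage markers, at 208 CPM, and of blood genes, at 704 CPM, where the next mice had 175, 127 and 281 CPM. The proliferation marker Mki67 was at 39.7 CPM in 61KR and 23.7 CPM in 17KR, and between 2.48 and 4.93 CPM in the other KO-empty mice. H19 was lowest of its group in 61KR. For the DHT interaction 0 of 5 blood genes passed by edgeR, with 4 at an unadjusted p under 0.05. Their median was -1.3 on the log2 scale. Of 5 tendon genes 0 passed by edgeR, with 3 at an unadjusted p under 0.05 and a median of -0.93. The part of these markers in the H19 and Grb10 interactions was not tested. Without 61KR the log2 change of H19 in KO was -2.26 and its interaction -1.14, and without 17KR these were -1.98 and -0.861, past the threshold in each case. With a threshold of 0.05 for interactions, 2 of 9 members passed, beside 3.24% of all genes in either direction. The Grb10 interaction missed the threshold without any 1 of 16 of the 22 libraries (adjusted p between 0.052 and 0.09) and with library-size scaling (adjusted p = 0.06, in a range from 0.016 to 0.06 over the other settings). In the ORX experiment the interaction values of the 9 members ran from -0.20 for Dlk1 to 0.44 for Plagl1 on the log2 scale. There 0 of 9 members passed by edgeR, beside 0.0228% of all genes, with 2 of 9 at an unadjusted p under 0.05, and 0 passed by DESeq2 and 0 by limma-voom. Those 2 were Meg3 with 0.28 ± 0.14 and Rian with 0.31 ± 0.14 (SE), so the calls of Rian and Plagl1 after ORX in KO and not in WT do not show that the genotypes differ.

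Loss of Actn3 itself went with higher Cdkn1c, the inhibitor of cyclin-dependent kinases, in 3 of the 4 conditions compared by edgeR. With an empty implant the mean was 12.9 ± 2.06 CPM in WT (SD, n = 5) and 25.5 ± 9.43 CPM in KO (SD, n = 5), and with DHT it was 18.9 ± 1.76 CPM in WT (SD, n = 6) and 36.9 ± 2.25 CPM in KO (SD, n = 6). After ORX it was 12.5 ± 0.982 CPM in WT (SD, n = 6) and 17.9 ± 2.72 CPM in KO (SD, n = 5). In each of these the KO mice all lay above the WT mice, with KO-empty 64KR far above its group at 41 CPM. Cdkn1c rose with loss of Actn3 by 0.98 ± 0.16 on the log2 scale under the empty implant (SE, adjusted p = 0.00032, 5 of 5 higher), by 0.97 ± 0.14 with DHT (SE, adjusted p = 2.8e-05, 6 of 6 higher) and by 0.52 ± 0.091 after ORX (SE, adjusted p = 0.0004, 5 of 5 higher). The empty-implant call was lost when only these groups were fitted (adjusted p = 0.014, in a range from 1.1e-07 to 0.014 over the other settings). In sham-operated mice Cdkn1c took 9.45, 11.4 and 12.7 CPM in WT and 12.2, 14.5 and 16.5 CPM in KO as lowest, median and highest, a log2 difference of 0.34 ± 0.088 (SE, adjusted p = 0.013, 5 of 6 KO mice above all WT mice). That value passed by DESeq2 (adjusted p = 0.003) and without KO-sham 1, KO-sham 5 or KO-ORX 2 (adjusted p between 0.0057 and 0.0094). It also passed with a replicate block (adjusted p = 0.0088), whose label numbers did not pair libraries across groups. The range over the other settings was 0.003 to 0.026. The interaction values of Cdkn1c were 0.18 ± 0.13 with ORX (SE, adjusted p = 0.68) and -0.02 ± 0.21 with DHT (SE, adjusted p = 0.98).

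Under the empty implant H19 was higher in KO than in WT, by 0.69 ± 0.16 on the log2 scale (SE, adjusted p = 0.0058, 4 of 5 KO-empty mice above all WT-empty mice). That call was lost without WT-empty 4KR, 7KR, 35KR or 49KR or KO-empty 17KR or 64KR (adjusted p between 0.011 and 0.022), and when only both groups were fitted (adjusted p = 0.037, in a range from 0.0003 to 0.037 over the other settings). Of 10 muscle fibre genes Tnnt3 was lower in KO there, at -0.37 ± 0.084 (log2, SE), with 7 at an unadjusted p under 0.05. The Tnnt3 call was lost without some single libraries, as given below. Of 5 blood genes 0 passed by edgeR, with 4 at an unadjusted p under 0.05 and a median of 0.92. The median summed fibre level was 180893 CPM in WT-empty and 156164 CPM in KO-empty. The part of these markers in the H19 and Cdkn1c values was not tested. With DHT the H19 difference between KO and WT was -0.32 ± 0.14 (SE, adjusted p = 0.12, 4 of 6 KO-DHT mice below all WT-DHT mice). With DHT Grb10 was higher in KO, by 0.38 ± 0.10 on the log2 scale (SE, adjusted p = 0.008, 4 of 6 above all WT-DHT mice). Leaving out WT-DHT 15KR, 8KR or 34KR or KO-DHT 6KR, 25KR, 40KR or 65KR put Grb10 at an adjusted p between 0.01 and 0.029, over the threshold, and a fit of only both groups at 0.023 (range from 0.0025 to 0.023 over the other settings). Markers differed there as well. Of 8 satellite cell genes, 3 were higher in KO with DHT, the stem cell factors Pax7 by 1.24 ± 0.25 and Myf5 by 0.89 ± 0.20 and the receptor Calcr by 1.04 ± 0.26 (log2, SE), and of 6 immature-fibre genes Myog was, by 0.97 ± 0.23. The Calcr call was lost without any 1 of 5 libraries (adjusted p between 0.014 and 0.017) and the Myog call without any 1 of 6 (adjusted p between 0.011 and 0.013) and when only both groups were fitted. The summed satellite cell level was 85.7 to 106 CPM in WT-DHT and 86.2 to 117 CPM in KO-DHT, with Sdc4 the most abundant. Of 10 muscle fibre genes Acta1 was lower, at -0.51 ± 0.095, and of 5 tendon genes Scx was, at -0.88 ± 0.24, a call lost without any 1 of 16 libraries (adjusted p between 0.01 and 0.029), with library-size scaling, by limma-voom and with only both groups fitted. The part of these markers in the Grb10 and Cdkn1c values was not tested. In all, 2 of 9 members were higher in KO under the empty implant, where 4.25% of all genes passed and 1.75% were higher, and 2 of 9 with DHT, where 11.6% passed and 5.13% were higher. The median over the 9 members was 0.12 and 0.16 on the log2 scale, beside 0.013 and 0.0064 over all genes.

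In gastrocnemius after ORX, KO muscle held more Meg3, Rian and Cdkn1c than WT muscle. Meg3 rose with loss of Actn3 by 0.42 ± 0.098 on the log2 scale there (SE, adjusted p = 0.006, 5 of 5 higher), and Rian by 0.52 ± 0.10 (SE, adjusted p = 0.0013, 4 of 5 above all WT-ORX mice). The Meg3 call was lost without any 1 of KO-ORX 1, 2, 3, 4 or 5 or WT-ORX 2, 3, 4, 5 or 6 (adjusted p between 0.011 and 0.018). In sham-operated mice Peg3 was higher in KO, by 0.38 ± 0.085 (SE, adjusted p = 0.0036, 5 of 6 above all WT-sham mice), a call lost without WT-sham mouse 3 (adjusted p = 0.012), with library-size scaling (adjusted p = 0.018) and when only the sham groups were fitted (adjusted p = 0.015), in a range from 0.00028 to 0.018 over the other settings. Of the markers in sham muscle, Acta1 of 10 muscle fibre genes was lower in KO, at -0.37 ± 0.056, Myf5 of 8 satellite cell genes higher, at 0.75 ± 0.18, and Csf1r of 6 macrophage genes lower, at -0.29 ± 0.071 (log2, SE). The Myf5 call was lost without any 1 of 8 libraries (adjusted p between 0.011 and 0.016) and with library-size scaling, and the Csf1r call without any 1 of 8 (adjusted p between 0.011 and 0.025), with library-size scaling and with only the sham groups fitted. Of 5 tendon genes 0 passed by edgeR in sham muscle, with 4 at an unadjusted p under 0.05 and a median of -0.77 (log2). The median summed tendon level was 456 CPM in WT-sham and 316 CPM in KO-sham. The summed satellite cell level was 94.6 to 119 CPM in WT-sham and 91.4 to 105 CPM in KO-sham, and the macrophage level 115 to 140 and 92.5 to 131 CPM. Their part in the Peg3 value was not tested. After ORX the Peg3 difference was 0.33 ± 0.087 (SE, adjusted p = 0.016, 5 of 5 higher). It passed by DESeq2 (adjusted p = 0.0043), by limma-voom (adjusted p = 0.0083) and with only both ORX groups fitted (adjusted p = 0.0022). It also passed with a replicate block (adjusted p = 0.0091), whose label numbers did not pair libraries across groups. The range over the other settings was 0.0022 to 0.022. Without KO-sham 4 or 5 it passed as well (adjusted p between 0.0013 and 0.0086). Thus 1 of 9 members was higher in KO in sham muscle, where 5.3% of all genes passed and 2.48% were higher, and 3 of 9 after ORX, where 3.8% passed and 1.07% were higher. Of 10 muscle fibre genes, 3 were lower in KO after ORX, Acta1 at -0.50 ± 0.059, Tnnt3 at -0.41 ± 0.049 and Ckm at -0.37 ± 0.079 (log2, SE), and of 6 macrophage genes C1qa was, at -0.48 ± 0.11. The Ckm call was lost without KO-ORX 1 or 2 (adjusted p between 0.011 and 0.012) and the C1qa call without any 1 of 15 libraries (adjusted p between 0.01 and 0.027) and with library-size scaling, and Ckm missed the threshold when only both groups were fitted. The summed levels in WT-ORX and KO-ORX were 116896 to 155156 and 111566 to 121980 CPM for the fibre list, led by Myh4, and 115 to 136 and 104 to 129 CPM for the macrophage list, led by Mrc1. The part of these markers in the Meg3, Rian and Cdkn1c values was not tested. The single gene in sham muscle is no result about the members as a group. The KO-sham libraries were shallower, at 29511438 to 37486666 counts beside 43408015 to 50273747 in WT-sham, and the part of depth in the Peg3 value was not tested. The median over the members was 0.21 in sham muscle and 0.29 after ORX on the log2 scale, beside -0.0069 and 0.0086 over all genes.

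**Figure D3:**
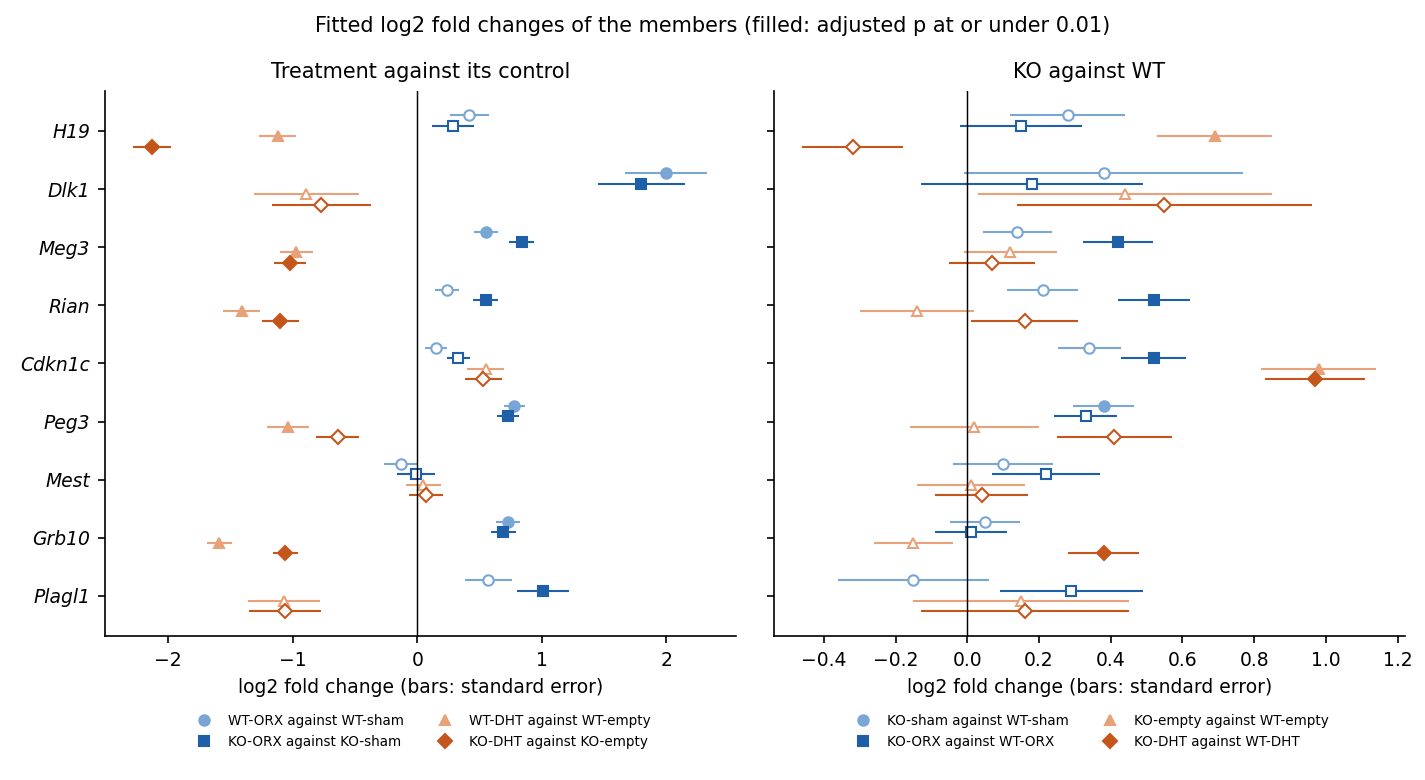
Fitted log2 fold changes of the 9 members (points) with their standard errors (bars), for treatment against its control (left) and KO against WT (right), filled where the adjusted p is at most 0.01. Values for ORX lie mostly above 0 and values for DHT mostly below it, with Cdkn1c on the positive side in each comparison shown.

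Between mice of the same group the members showed little common variation in gastrocnemius. After subtraction of group means, the median Pearson r over the 36 pairs of members was 0.03 in the ORX experiment, with 20 positive. In the DHT experiment it was 0.28, with 32 positive. No such values for pairs of other genes stand beside these, so they are no result about the members as a set. Meg3 and Rian, neighbours in 1 cluster, varied most alike, with r = 0.69 over the 22 spinalis libraries (permutation p = 0.0035, adjusted p = 0.13), rho = 0.67 (permutation p = 0.0058, adjusted p = 0.21) and r = 0.55 without the 2 libraries farthest from the median of Meg3. Over the 72 pairs of both experiments 0 passed an adjusted p of 0.05 by this permutation test, and 7 of 72 had an unadjusted p under 0.05. With library-size scaling 2 pairs of the DHT experiment passed, so the count depends on the scaling. H19 and Rian had r = 0.55 in spinalis (permutation p = 0.046, adjusted p = 0.41), with rho = 0.51 (permutation p = 0.045, adjusted p = 0.4) and r = 0.41 without the 2 farthest libraries.

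The genes whose levels followed H19 most closely within groups were not members. Over the 23 gastrocnemius libraries and 14138 genes they were Ak4 (r = 0.88, rho = 0.84), Gm8242 (r = 0.87, rho = 0.79), BC048679 (r = 0.87, rho = 0.86), Coq3 (r = 0.86, rho = 0.80) and Decr1 (r = 0.86, rho = 0.86). Over the 22 spinalis libraries and 13691 genes they were Agt (r = 0.76, rho = 0.64), Rnf215 (r = 0.71, rho = 0.65), Gpx7 (r = 0.71, rho = 0.63), Polr1e (r = 0.71, rho = 0.80) and Gm8518 (r = 0.70, rho = 0.62). Without the 2 libraries farthest from the median of H19, r stayed between 0.75 and 0.81 for the gastrocnemius genes and lay between 0.44 and 0.71 for the spinalis genes. These values describe likeness only, since the genes were picked as the most alike. By the same measure Rian ranked 85 of 13691 genes in spinalis, the highest rank of a member, and Meg3 had r = -0.33 in gastrocnemius.

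Within 100 kb of H19, 5 of 13 annotated genes were tested. Lsp1, which encodes an actin-binding protein of leukocytes, moved in 6 comparisons. It rose with DHT in WT by 0.77 ± 0.11 and was lower in KO than in WT with DHT, at -1.57 ± 0.11, after ORX, at -0.42 ± 0.075, and in sham muscle, at -0.37 ± 0.072 (log2, SE). Under the empty implant Lsp1 was at -0.51 ± 0.12, a call lost without any 1 of 7 libraries (adjusted p between 0.011 and 0.025). Its DHT interaction was -1.06 ± 0.16, beside -1.01 for H19, although Lsp1 rose with DHT in WT where H19 fell. Tnnt3, which encodes the fast troponin T, was lower in KO than in WT after ORX, at -0.41 ± 0.049. Its other calls, -0.20 ± 0.049 with ORX in KO and -0.37 ± 0.084 in KO under the empty implant, were lost without any 1 of 16 libraries (adjusted p between 0.01 and 0.029) and of 6 libraries (adjusted p between 0.011 and 0.023). Mrpl23, Prr33 and the noncoding RNA Nctc1 had log2 values between -0.22 and 0.24, with adjusted p-values of at least 0.034.

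Other genes of the members' clusters passed in both directions. Of 170 values, 19 passed over the 10 comparisons (11.2%, beside 5.49% of all values tested), 11 higher and 8 lower, a description with no test. Of 17 measured, 2 were higher and 1 lower with ORX in WT, 3 higher and 2 lower with ORX in KO, 4 lower with DHT in WT, and 1 higher and 1 lower with DHT in KO. Loss of Actn3 had 2 higher in sham muscle, 2 higher after ORX and 1 higher with DHT. Zim1, of the Peg3 cluster, rose with ORX by 0.56 ± 0.12 in WT and 0.76 ± 0.12 in KO (log2, SE), beside the rise of Peg3. Rtl1 and Mirg, which share the cluster of Meg3 and Rian, fell with DHT in WT, at -0.89 ± 0.19 and -0.96 ± 0.21, and Rtl1 in KO at -0.97 ± 0.19, a call lost without KO-empty 17KR (adjusted p = 0.01, just over the threshold). Cobl, of the Grb10 cluster, was higher in KO than in WT by 0.63 ± 0.072 in sham muscle and 0.86 ± 0.074 after ORX. Usp29 and Dio3, at 2.48 ± 0.42 and -2.53 ± 0.46 with ORX in WT, were under 1 CPM in all libraries.

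Partners of the members in signalling were followed as lists. In the insulin and IGF receptor pathway, with which Grb10 interferes, 22 genes were measured, and 21 of their 220 values over the 10 comparisons passed (9.55%, beside 5.49% over all genes), 5 higher and 16 lower. With DHT in WT the receptor Igf1r fell by 0.39 ± 0.083 and the kinase subunit Pik3r1 by 0.66 ± 0.13 (log2, SE). Under the empty implant the adaptors Grb2 and Grb14 were higher in KO, by 0.48 ± 0.058 and 0.58 ± 0.11, while Pik3r1 was lower, at -0.79 ± 0.13. In the Notch pathway, to which Dlk1 is related, 4 of 120 values passed (3.33%), all 4 higher, among them the target Hes1 with DHT in WT, by 0.85 ± 0.12. Of the cyclin-dependent kinases and inhibitors, relatives and targets of Cdkn1c, 9 of 155 values passed (5.81%), 4 higher and 5 lower, and Cdkn2c was lower in KO after ORX, at -0.55 ± 0.091. With DHT in KO, Mki67 fell by 2.51 ± 0.56 and Cdkn1a by 1.51 ± 0.34, each lost without any 1 of 7 libraries (adjusted p between 0.012 and 0.036, and between 0.012 and 0.016), KO-empty 61KR and 17KR among them, and Mki67 also by limma-voom and with only both groups fitted. Factors of imprint control and DNA methylation had 8 of 160 values past the threshold (5%), 3 higher and 5 lower. Among the lower values were those of Tet1 and Tet2, which fell with DHT in WT by 1.09 ± 0.18 and 0.61 ± 0.11. Of 38 and 37 other imprinted genes measured in the muscles, 28 of 375 values passed (7.47%), 14 higher and 14 lower. Among them the amino acid transporter gene Slc38a4 fell after ORX by 0.95 ± 0.10 and rose with DHT by 1.02 ± 0.13 in WT. The shares of the Notch, kinase and methylation lists are close to or under that of all genes and are no result about these lists. Of the 90 values of the members over the same comparisons, 29 passed. The members were chosen with earlier results of these counts in view and the comparisons share groups, so this is not independent evidence.

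The H19 exon also holds the precursor of miR-675, and Meg3 exons hold miR-770 and miR-1906. In RefSeq, 5 of the 10 genes hold 8 miRNA genes with 15 mature sequences, and GENCODE lists Gm23912 in Rian besides. The mature sequences inside the exons of H19 and Meg3 are shown as the known small RNA products of transcripts that fell with DHT. None of these miRNA genes was itself among the genes tested, so the level of the mature miRNAs was not measured. Sequences are from RefSeq, build GRCm38.p6, written 5′ to 3′ with the seed (bases 2 to 8) in capitals. The miR-675 arms lie at chr7:142577112-142577133 and chr7:142577078-142577099 on the minus strand, and the miR-770 arms at chr12:109563710-109563731 and chr12:109563744-109563765 on the plus strand, where miR-1906 lies at chr12:109544588-109544609. The 5 seeds differ from each other.
mmu-miR-675-5p: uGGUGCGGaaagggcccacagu
mmu-miR-675-3p: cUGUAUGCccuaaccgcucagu
mmu-miR-770-5p: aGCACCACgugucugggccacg
mmu-miR-770-3p: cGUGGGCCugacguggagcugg
mmu-miR-1906: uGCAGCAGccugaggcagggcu

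Rian's promoter is shown because Rian and Meg3 fell together with DHT and because it is 1 of 2 among 15 promoter windows of 8 members that hold the androgen receptor half-site AGAACA or its reverse complement TGTTCT, searched on both strands. The other belongs to Igf2. Of all 32851 promoter windows of the same length, 6233 (19%) hold the motif. The match is a description of letters and not a binding site. The window runs from 250 bases before to 50 bases after the start of transcription, chr12:109603695-109603994 on the plus strand, from RefSeq, build GRCm38.p6, with the motif in capitals.
Rian promoter: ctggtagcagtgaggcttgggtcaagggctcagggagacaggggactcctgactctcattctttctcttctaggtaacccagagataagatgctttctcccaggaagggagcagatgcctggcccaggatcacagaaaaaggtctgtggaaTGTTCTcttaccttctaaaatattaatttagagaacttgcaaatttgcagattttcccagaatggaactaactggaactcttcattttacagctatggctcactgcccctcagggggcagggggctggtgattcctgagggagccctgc

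Some reads of the members cannot be assigned with certainty. Mest shares 912 exon bases with Copg2 on the opposite strand, Meg3 shares 1228 with Gm26906 and Cdkn1c 625 with Gm44732. Whether the counting separated the strands is not given in the sources used here, so the reads of such pairs cannot be told apart.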

How the data were processed

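RNA of 1 muscle per mouse was sequenced from TruSeq Stranded Total RNA Gold libraries. Per the submitters' processing notes, the authors aligned reads to GRCm39 with STAR 2.7.1b, marked duplicates with Picard 2.20.2, used SAMtools 1.9 and made the deposited raw counts per gene with featureCounts of Subread 2.0.0. The strand setting of the counting is not given in the sources used here. The labels hold 46 samples and 45 were analysed, since KO-ORX has 6 in the labels and 5 columns. DHT columns were assigned to groups from the group name each carries. GENCODE M21 (GRCm38) gave gene names, exon lengths, overlaps and neighbours only, and 81 and 67 identifiers had no match in it.

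Each experiment was fitted with the edgeR 4.0.16 quasi-likelihood test in R 4.3.3, with TMM scaling, over genes that reach 0.5 CPM in 2 or more libraries, 1 mean per group. Adjusted p-values are Benjamini-Hochberg over all genes tested, with a threshold of 0.01, and 0.05 for interactions. CPM are TMM-scaled, and log2 CPM use a prior count of 2. Correlations were computed in Python 3.11.15 on log2 CPM with group means subtracted, with two-sided permutation within groups (100000 resamples). Members and gene lists were chosen with earlier results of these data known. Beyond the members, genes were named by rule: Actn3, up to 4 genes past the threshold per list and comparison, the 5 genes most like H19 in each experiment, genes within 100 kb of H19, and the most abundant or near-absent markers of a cell type. Slow fibre, satellite cell, immature fibre, fibroblast, adipocyte, endothelial, pericyte, macrophage, Schwann cell, tendon and blood lists were also counted. Alternatives were library-size scaling, DESeq2 1.42.0, limma-voom (limma 3.58.1), no filter, at least 10 counts in every library, a prior count of 0.5 for correlations, only the groups compared, a replicate block in the ORX experiment, and leaving out each library. The steps were tested on simulated data.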

Additional observations from a re-analysis of the deposited data

Results flagged for a closer look

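H19 and Grb10 responded to DHT differently in the genotypes by the interaction term of the fit over all 4 groups. The difference between KO and WT in the log2 change was -1.01 ± 0.21 for H19 (SE, adjusted p = 0.0058), which fell further in KO, and 0.53 ± 0.15 for Grb10 (SE, adjusted p = 0.047), which fell further in WT. The H19 difference passed without any 1 library, and the Grb10 difference missed the threshold without any 1 of 16 of the 22 libraries (adjusted p between 0.052 and 0.09) and with library-size scaling (adjusted p = 0.06, range over the alternatives other than leaving out a library 0.016 to 0.06). Single mice also stood apart from their groups. Plagl1 in KO-sham mouse 2 was at -1.12 log2 CPM, while the other 5 mice lay between -0.19 and 0.24. Grb10 in KO-DHT mouse 40KR was at 5.78 log2 CPM, while the other mice lay between 5.33 and 5.47. With 72 groups of values examined, chance alone marks about 1 in 20, and 2 were found.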

How the results depend on the processing

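Of 29 member fold changes past the threshold, 22 kept their direction and their side of it in every alternative that gave them a value. None of the 29, or 0, reversed. The 22 include the Dlk1 calls with ORX, which have no value under the stricter filter. Of those short of it, 9 passed in some alternative and 20 changed sign in some. Leaving out each library in turn gave 4 to 4 member calls for ORX in WT, 5 to 6 for ORX in KO, 5 to 6 for DHT in WT, 4 to 5 for DHT in KO and 2 to 4 for KO after ORX, and 0 to 0 for the ORX interaction. It gave 0 to 2 for KO in sham muscle, and 1 to 2 each for KO under the empty implant, KO with DHT and the DHT interaction.

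Counts of member calls that moved by over 1.5 times were these. KO against WT in sham muscle went from 1 to 0 with library-size scaling, to 2 with DESeq2, to 0 with only those groups and to 2 with a replicate block. DHT in KO went from 4 to 7 with DESeq2. With only the groups compared, KO under the empty implant went from 2 to 0 and KO with DHT from 2 to 1, and the DHT interaction went from 2 to 1 with library-size scaling, which also took the correlated member pairs of the DHT experiment from 0 to 2. Smaller moves were DHT in WT from 5 to 7 with DESeq2 (Cdkn1c and Plagl1) and to 6 with only those groups (Cdkn1c), DHT in KO from 4 to 5 with limma-voom (Cdkn1c) and with only those groups (Peg3), KO after ORX from 3 to 4 with DESeq2, limma-voom, only those groups and a replicate block (Peg3), ORX in WT from 4 to 5 with only those groups (H19), and ORX in KO from 6 to 7 with library-size scaling (Cdkn1c) and to 5 with only those groups (Plagl1). The stricter filter gave 3 and 5 for ORX in WT and KO, where Dlk1 has no value. The cause was not tested.

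Sign changes all concern values short of the threshold. With library-size scaling Mest became 0.0978 for ORX in KO and -0.0212 for DHT in WT, Peg3 0.0154 and Grb10 0.0201 for the ORX interaction, and Cdkn1c 0.0202 for the DHT interaction. With limma-voom Mest became 0.0226 for ORX in KO, and Cdkn1c 0.0515 and Plagl1 -0.0345 for the DHT interaction. With at least 10 counts in every library Mest became 0.00103 for ORX in KO and Plagl1 -0.00131 for the DHT interaction. With a replicate block Mest became 0.00833 for ORX in KO.

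Leaving out single libraries, Mest ran from -0.0878 to 0.0874 for ORX in KO, from -0.0293 to 0.114 for DHT in WT, from -0.0614 to 0.0777 for KO under the empty implant, from -0.026 to 0.117 for KO with DHT and from -0.0453 to 0.1 for the DHT interaction. Grb10 ran from -0.0221 to 0.0972 for KO in sham muscle, from -0.0557 to 0.0599 for KO after ORX and from -0.106 to 0.0278 for the ORX interaction. Plagl1 ran from -0.232 to 0.0114 for KO in sham muscle, from -0.0537 to 0.372 under the empty implant, from -0.0404 to 0.335 with DHT and from -0.212 to 0.214 for the DHT interaction. After ORX, KO against WT ran from -0.042 to 0.212 for H19 and from -0.159 to 0.298 for Dlk1. Peg3 ran from -0.102 to 0.0643 for the ORX interaction and from -0.0981 to 0.156 for KO under the empty implant, where Meg3 ran from -0.00325 to 0.217. For the DHT interaction Dlk1 ran from -0.0965 to 0.479, Meg3 from -0.15 to 0.0701 and Cdkn1c from -0.146 to 0.222.

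Over all genes, the count of calls ranged from 484 to 1356 around 975 for ORX in KO, from 2 to 125 around 4 for the ORX interaction, from 498 to 1201 around 784 for DHT in KO and from 289 to 1057 around 722 for KO under the empty implant. Library-size scaling moved the share of calls that were higher from 37.5% to 54.4% for ORX in WT, from 35.7% to 78.6% for ORX in KO, from 28.2% to 46.9% for KO after ORX, from 58.8% to 43.6% for DHT in WT, from 41.3% to 52.9% for KO under the empty implant, from 44.1% to 65.3% for KO with DHT and from 41.5% to 55.1% for the DHT interaction. For ORX in KO it moved the median of all genes to 0.12 on the log2 scale. The ORX interaction had 75% higher of 4 calls, 100% with library-size scaling, 39.2% with DESeq2 and 40% with limma-voom.

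Label numbers of the ORX mice do not pair libraries across groups. Over 33 pairs of libraries with 1 number in both, r ranged from -0.15 to 0.19, 6 were over 0.1, and 7 of 23 libraries matched their own number best. No paired analysis was possible for the DHT experiment because its columns carry no replicate number of the labels. Dlk1 has too few counts for the stricter filter and no value under it. Depth limits Dlk1 (3 to 78 counts per library) and Plagl1 (15 to 232) most. Counts cannot separate parental copies, and cell composition was not measured.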

Other observations

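Cell type markers were also counted as lists. Over the 10 comparisons, 4 of 80 satellite cell values, 7 of 80 fibroblast, 1 of 70 adipocyte, 3 of 60 endothelial, 3 of 60 pericyte, 3 of 60 macrophage, 3 of 50 tendon, 7 of 55 immature fibre and 14 of 100 muscle fibre values passed, beside 5.49% of the values of all genes. By edgeR 0 of 70 slow fibre values passed (19 at an unadjusted p under 0.05, 1 by DESeq2 and 2 by limma-voom), 0 of 50 Schwann cell values (1 at an unadjusted p under 0.05, 0 by DESeq2 and 0 by limma-voom) and 0 of 50 blood values (15 at an unadjusted p under 0.05, 0 by DESeq2 and 0 by limma-voom). Their part in the members' values was not tested.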
